A study of Drosophila melanogaster with 5 samples.

Results

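Blood lineage transcription factors were followed in the hemolymph RNA of Drosophila larvae. The group was set by gene name, and no measured value entered that rule. It holds 10 genes, srp, ush, gcm, gcm2, lz, kn, zfh1, Ets21C, jumu and pnt, of the 17807 genes in the count table. These members were chosen with earlier results of these data known. All 10 are listed in the table under FlyBase identifiers. The controls were Cg-Gal4>CS larvae, in which the Cg-Gal4 driver was crossed to wild-type Canton-S flies, with 2 libraries. The abd-A group was Cg-Gal4>UAS-abd-A, in which the same driver switched on the Hox gene abd-A from a UAS transgene, with 3 libraries. The labels give the strain of all 5 libraries as Canton-S, and the background of the UAS-abd-A line is not given in the sources used here. Both groups carried Cg-Gal4, were raised at 25 °C and were bled 96 to 102 h after egg laying, with the hemolymph of 20 larvae pooled. Cg-Gal4 is active in the fat body as well as in blood cells, so the driver was not restricted to the cells that were sampled. The labels give separate samples but do not say how the pools were raised, so p-values measure the spread between these pools.

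Fly blood cells arise from precursors that express srp, a GATA factor, and take 1 of several fates. Plasmatocytes engulf microbes and dead cells, crystal cells carry the enzymes of melanization, and lamellocytes are large flat cells that wrap objects too big to engulf. The srp protein acts with partners that steer these fates. The ush protein is its Friend-of-GATA cofactor and holds back crystal cell fate, the Runt factor lz directs crystal cell fate, and gcm and gcm2, a pair of related zinc-binding factors best known for specifying glia, promote plasmatocyte fate in the embryo. The EBF factor kn, also called collier, marks the signaling niche of the lymph gland and is needed for lamellocytes after wasp parasitism. The remaining members are zfh1, a zinc finger and homeodomain protein of the ZEB family, the Ets factors pnt and Ets21C, which act downstream of Ras and of stress signaling respectively, and the forkhead factor jumu.

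The libraries held 1252969 to 4959111 counts on genes, with the control libraries the shallower ones. Depth here means these counts. The paper states far more reads per sample than these totals, and the reason for the gap was not tested. Levels per library are given as CPM, which are counts relative to the library size after TMM scaling. The overexpressed gene, abd-A, had 0 and 21 counts in the controls and 474 to 638 in the abd-A libraries. Of the lists of cell type markers, all 9 lamellocyte markers were called higher and their summed level was 1253 and 1704 CPM in the controls against 19512 to 22642 CPM with abd-A. All 6 crystal cell markers and 6 of 10 plasmatocyte markers were called lower. RNA of other tissues was also unequal, with 6 of 7 fat body markers and 6 of 6 muscle markers called lower with abd-A. The fat body sum was 2771 and 22776 CPM in control replicates 1 and 2 and 507 to 1653 CPM with abd-A, and the muscle sum was 1246 to 3082 CPM against 387 to 569 CPM. Lower were 3 of 5 neuron markers and 1 of 6 imaginal disc markers, higher were 2 of 6 glia markers, 1 of 3 prohemocyte markers and 1 of 4 midgut markers, and none of 5 salivary gland markers was called. Of all genes tested, 11.0% were called higher and 12.7% lower, at the thresholds given below. Listed at 0 in every library were the glia marker wrapper and the salivary gland marker Sgs4. The part of these tissues in the changes below was not tested beyond the values given, and in such bulk RNA fewer cells of a type and less RNA per cell cannot be told apart. The library kit keeps the strand of a read, while the strand setting of the counting is not given in the sources used here. Genes annotated as antisense RNA had a median of 5.55 to 9.53 times the count density of the protein-coding genes they overlap, in 392 to 430 pairs per library, and were the denser gene in 83.6% to 87.7% of the pairs. Reads from a member and reads from its opposite strand therefore cannot be told apart in these counts. The counts may have been taken on the strand opposite to the genes, which was not tested further, and every level, share and rank below is that of the row listed under the gene's name.

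Of the 10 factors, 8 reached the minimum of 10 counts summed over the libraries and were tested, and gcm and gcm2 did not. Genes count as called here where edgeR's quasi-likelihood test, corrected by Benjamini-Hochberg over 11624 genes, gave an adjusted p under 0.05 and the change was at least 2-fold. In the abd-A libraries zfh1 was called higher and Ets21C and lz were called lower. That is 1 of 8 called higher, where 11.0% of all genes tested were, and 2 of 8 called lower, where 12.7% were. In either direction it is 3 of 8, beside 23.7% of all genes. The CPM values of the groups did not overlap for 5 members, beside 56.6% of all genes. Among these 5, zfh1 and pnt lay higher with abd-A (27.3% of all genes did) and Ets21C, lz and jumu lay lower (29.3% did). With so few members these shares cannot set the group apart from other genes. Over the 11624 genes the median change was -0.17 on the log2 scale, so a member at 0 lay slightly above the typical gene. The plot of fold changes shows the 8 members in order.

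**Figure D1:**
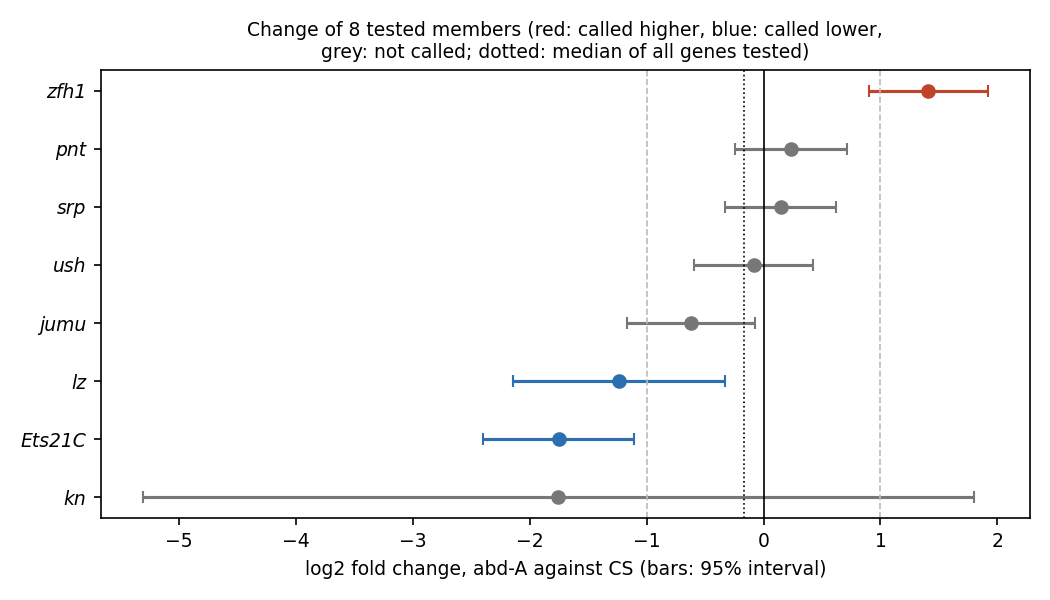
Log2 fold change of the 8 tested members (x axis, abd-A against CS) with 95% intervals. Only zfh1 (1.41, red) was called higher, Ets21C (-1.75) and lz (-1.23, both blue) were called lower, the grey members were not called, and the interval of kn runs from -5.30 to 1.80. Dashed lines mark a 2-fold change and the dotted line the median of all genes tested, -0.17.

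Levels of different genes were compared as CPM per kb of exon length. The row of Ets21C had by far the highest level of the members in every library, with 2036 and 1030 CPM per kb in the controls and 426 to 497 CPM per kb with abd-A. In the controls the next members were zfh1, at 73.9 and 96.3 CPM per kb, and srp, at 85.9 and 77.5 CPM per kb, and these neighbours did not differ beyond their spread. Below them came pnt, at 37.9 and 50.4 CPM per kb. After it jumu, at 30.1 and 26.6, and ush, at 20.4 and 26.7 CPM per kb, overlapped. The last in order were lz, at 10.3 and 9.73, and kn, at 0 and 2.74 CPM per kb. The 3 abd-A libraries had the same order as control replicate 2. There zfh1, at 204.7 to 239.5 CPM per kb, no longer overlapped srp, at 77.8 to 101.8 CPM per kb. In each of these libraries ush lay above jumu, although their ranges of 20.4 to 24.2 and 16.7 to 21.5 CPM per kb still overlapped.

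**Figure D2:**
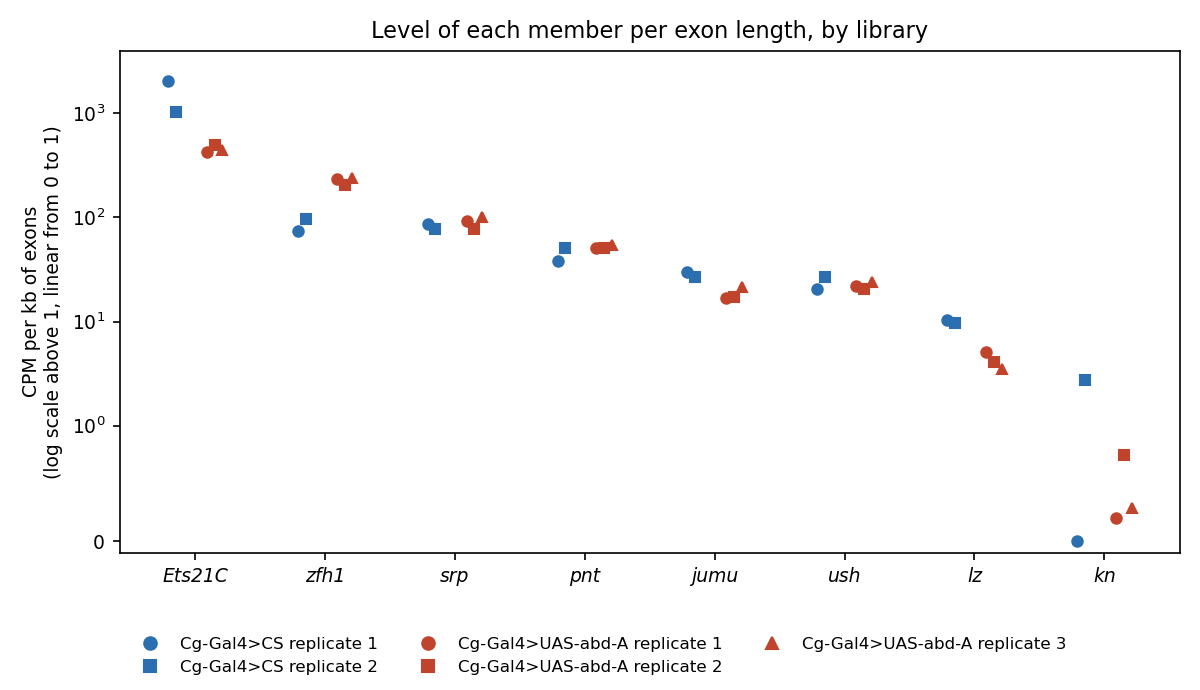
CPM per kb of exons (y axis, log scale above 1 and linear below) of the 8 tested members in each of the 5 libraries, with controls in blue and abd-A libraries in red. Ets21C is the highest in all 5 libraries and kn the lowest, and zfh1 separates from srp in the abd-A libraries.

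The general blood cell factor srp and its cofactor ush were measured at similar levels in both groups. srp (FBgn0003507, dm6 3R, from 15986152 to 16004085) was counted 729 and 1165 times in control replicates 1 and 2 and 2395, 1665 and 2789 times in abd-A replicates 1, 2 and 3, the order kept for all genes below. This corresponds to 501 and 452 CPM in the controls and 535, 454 and 594 CPM with abd-A, and the groups overlapped. For srp the log2 fold change was 0.15 (SE 0.21), with a 95% interval from -0.33 to 0.62 and an edgeR adjusted p of 0.632. Its sign depended on the scaling, which gave -0.05 with library totals. ush (FBgn0003963, 2L, from 476220 to 540560) was counted 199 and 462 times in the controls and 665, 502 and 763 times with abd-A. Its CPM was 136.7 and 179 in the controls and 149, 136.8 and 162 with abd-A, so that the 3 abd-A libraries lay within the span of the 2 controls. The fitted change of ush was -0.08 on the log2 scale (SE 0.23, 95% interval -0.59 to 0.42, adjusted p 0.806 in the same edgeR test) and turned to 0.10 without control replicate 2. These intervals leave room for changes of up to 1.54-fold for srp and down to 0.664 times the control for ush.

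The counts listed for zfh1 rose with abd-A. The gene lies on chromosome 3R (FBgn0004606, 30765926 to 30789202) and was counted 744 and 1717 times in the controls against 7268, 5195 and 7781 times in the abd-A libraries. The normalized level was 511 and 666 CPM in the controls and 1624, 1415 and 1656 CPM with abd-A. Each abd-A library lay above both controls, and the controls differed from each other by 1.30-fold. The means were 589 ± 109.6 CPM (SD, n = 2) and 1565 ± 131 CPM (SD, n = 3). In edgeR the log2 fold change of zfh1 was 1.41 (SE 0.22, adjusted p 0.00206), or 2.66-fold with a 95% interval from 1.87 to 3.77. The call was kept in 15 of 15 alternatives, with log2 fold changes from 1.22 to 1.59. The antisense RNA gene asRNA:CR45189 covers 315 of the 6915 exonic bases of zfh1 on the other strand. That gene had 96 and 220 reads in the controls and 211, 172 and 186 with abd-A, with a log2 fold change of -0.77 (SE 0.27) that was not called. Because the strand of the counting is not known, the rise is that of the zfh1 row, and which strand its reads came from was not tested. Lamellocyte markers were also higher with abd-A, at the sums given above, and their part in the zfh1 change was not tested. Muscle, where zfh1 is also active, had a lower marker sum in every abd-A library than in either control, and its part was not tested either.

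The counts listed for Ets21C fell with abd-A from a very high level. The gene lies on chromosome 2L (FBgn0005660, 544925 to 552923). Its reads numbered 16028 and 14356 in the controls and 10301, 9873 and 11253 in the abd-A libraries, which held more counts in all. In control replicate 1 Ets21C took 1.28% of all counts (95% Wilson interval 1.26% to 1.30%) and ranked 5 among all genes by count, and in control replicate 2 it took 0.559% (0.550% to 0.568%) and ranked 14. With abd-A it took 0.218%, 0.257% and 0.227% and ranked 42, 37 and 44. These intervals cover counting error only. The CPM was 11010 and 5569 in the controls and 2302, 2690 and 2395 with abd-A, and the groups did not overlap. The controls differed from each other by 1.98-fold, the widest gap of the 7 members that were detected in both, while the abd-A libraries differed by at most 1.17-fold. In edgeR the log2 fold change of Ets21C was -1.75 (SE 0.29, adjusted p 0.0024), or 0.297 times the control with a 95% interval from 0.19 to 0.465. It was -1.19 without control replicate 1 and -2.18 without control replicate 2, and the call was kept in both of these fits and in 15 of 15 alternatives. Control replicate 1, the higher of the 2 for Ets21C, had the lower summed fat body level (2771 against 22776 CPM). Its summed muscle level was lower too (1246 against 3082 CPM). The part of either tissue in the Ets21C values was not tested. The gene nAChRbeta3, a subunit of the nicotinic acetylcholine receptor, covers 1532 of the 5407 exonic bases of Ets21C on the opposite strand. It had 408 and 884 reads in the controls and 1058, 819 and 1192 with abd-A, and its log2 fold change of -0.39 (SE 0.20) was not called. These counts set no limit on how many reads of the shared bases stand in the Ets21C row, because the strand of the counting is not known.

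**Figure D3:**
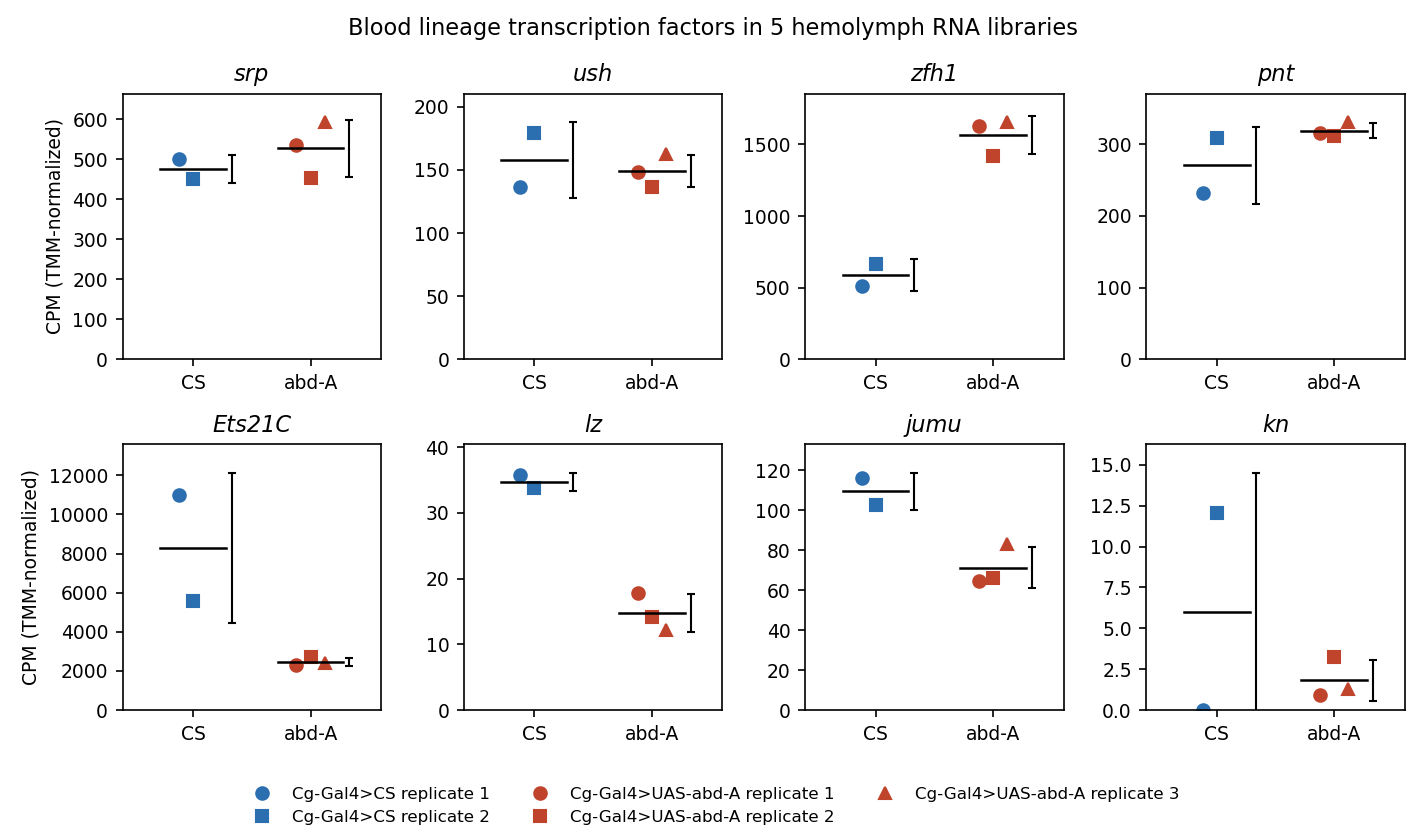
TMM-normalized CPM (y axes, each from 0) of the 8 tested members in the control (CS, blue) and abd-A (red) libraries. Each point is 1 library, lines are group means and bars show the SD (n = 2 and 3, cut at 0 for kn). All abd-A libraries lie above the controls for zfh1 and, narrowly, for pnt, and below them for Ets21C, lz and jumu.

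The second Ets factor, pnt, and the forkhead gene jumu were not called. pnt (FBgn0003118, chromosome 3R, 23290231 to 23346167) was counted 338 and 795 times in the controls and 1409, 1141 and 1554 times with abd-A. The levels were 232 and 308 CPM against 315, 311 and 331 CPM, so control replicate 2 was nearly level with the lowest abd-A library. For pnt the log2 fold change was 0.24 (SE 0.21, 95% interval -0.24 to 0.71, edgeR adjusted p 0.431). jumu (FBgn0015396, chromosome 3R, 10350182 to 10361612) was counted 169 and 265 times in the controls and 288, 243 and 390 times with abd-A. Its CPM of 116 and 102.8 in the controls and 64.4, 66.2 and 83.0 with abd-A did not overlap. For jumu the log2 fold change was -0.62 (SE 0.24) and the edgeR adjusted p 0.0894. With the 3 other scalings it was -0.81 to -0.77, with an adjusted p of 0.0373 to 0.0434 (edgeR, Benjamini-Hochberg), and it stayed below a 2-fold change in all 15 alternatives.

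The crystal cell factor lz was called lower, by a narrow margin. lz (FBgn0002576, chromosome X, 9284649 to 9303636) was counted 52 and 87 times in the controls and 80, 52 and 57 times in the deeper abd-A libraries. Its level was 35.7 and 33.7 CPM in the controls and 17.9, 14.2 and 12.1 CPM with abd-A. The groups did not overlap, and the 2 controls differed by only 1.06-fold. The fit gave lz a log2 fold change of -1.23 (SE 0.40), or 0.425 times the control with a 95% interval from 0.227 to 0.796, at an edgeR adjusted p of 0.0492. The call was lost whenever an abd-A library was left out, with an adjusted p of 0.11, 0.133 and 0.166 (edgeR, Benjamini-Hochberg) without abd-A replicates 1, 2 and 3. With the 3 other scalings the log2 fold change was -1.43 to -1.39 and the call was kept.

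Genes linked to lz were read beside it. The crystal cell enzymes PPO1 and PPO2 were called lower, with log2 fold changes of -4.16 (SE 0.28) and -3.60 (SE 0.24). The median of the 6 crystal cell markers was -3.41. Within a library lz had 0.764 and 0.558 counts per 100 counts of PPO1 in the controls and 7.32, 5.44 and 3.07 with abd-A. Measured against the 6 markers summed, the ratios were 0.373 and 0.289 in the controls and 2.96, 2.09 and 1.32 with abd-A. The ratio was higher in every abd-A library than in either control, with a log2 fold change of -1.23 for lz beside the marker median of -3.41. It was chosen after the data had been seen, and the difference between lz and the markers was not tested. Of the genes for the CBF-beta type partners of Runt proteins, Bgb was called lower, with 22 and 49 reads in the controls and 10, 13 and 17 with abd-A. It changed by -2.44 (SE 0.73) on the log2 scale, and of the 5 fits that left out a library only the one without control replicate 1 kept the call. The other partner gene, Bro, had 0 and 21 reads in the controls and 1, 3 and 0 with abd-A and was not called.

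The rows of the plasmatocyte factors gcm and gcm2 held at most 2 counts in any library. gcm (FBgn0014179, chromosome 2L, 9579498 to 9581745) was listed at 0 in both controls and had 0, 1 and 0 counts with abd-A. gcm2 (FBgn0019809, chromosome 2L, 9608562 to 9612706) was listed at 0 in both controls too and had 0, 0 and 2 counts with abd-A. A count of 0 allows up to 3 counts, which is 2.06 and 1.16 CPM in control replicates 1 and 2 and 0.638 to 0.817 CPM in the abd-A libraries. The limit lies higher for gcm in abd-A replicate 2, with 1 count, and for gcm2 in abd-A replicate 3, with 2 counts. These limits are those of the rows. They set no bound on the RNA of either gene, because the strand of the counting is not known. No fold change was computed for either gene. CG31709, on the same strand, shares 128 exonic bases with gcm and had 28 and 11 reads in the controls and 0 in each abd-A library.

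The niche and lamellocyte factor kn (FBgn0001319, chromosome 2R, 14772650 to 14807061) was counted 0 and 31 times in the controls and 4, 12 and 6 times with abd-A. The normalized level was 0 and 12.0 CPM in the controls and 0.894, 3.27 and 1.28 CPM with abd-A. All abd-A libraries lay between the controls, and the largest value of the gene was that of control replicate 2. The log2 fold change of -1.75 (SE 1.58) had a 95% interval from -5.30 to 1.80 and an edgeR adjusted p of 0.432. Its direction rested on control replicate 2, without which the remaining control had 0 counts.

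The counts of each member were next divided by the counts of srp in the same library, a ratio that no scaling between libraries can change. Among 7 such ratios, 4 did not overlap between the groups, beside 53.6% of the same ratio over all other genes tested, so the count does not set the members apart. zfh1 had 1.02 and 1.47 counts per srp count in the controls and 3.03, 3.12 and 2.79 with abd-A. For Ets21C the ratio was 22.0 and 12.3 in the controls and 4.30, 5.93 and 4.03 with abd-A. For lz it was 0.0713 and 0.0747 against 0.0334, 0.0312 and 0.0204. For jumu it was 0.232 and 0.227 against 0.12, 0.146 and 0.14. The controls were nearly equal to each other for lz and jumu and apart for Ets21C. The ratio of the cofactor to its GATA partner, ush to srp, was 0.273 and 0.397 in the controls and 0.278, 0.302 and 0.274 with abd-A, and it overlapped, as did those of pnt and kn. These ratios were chosen after the data had been seen and are given as a description.

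**Figure D4:**
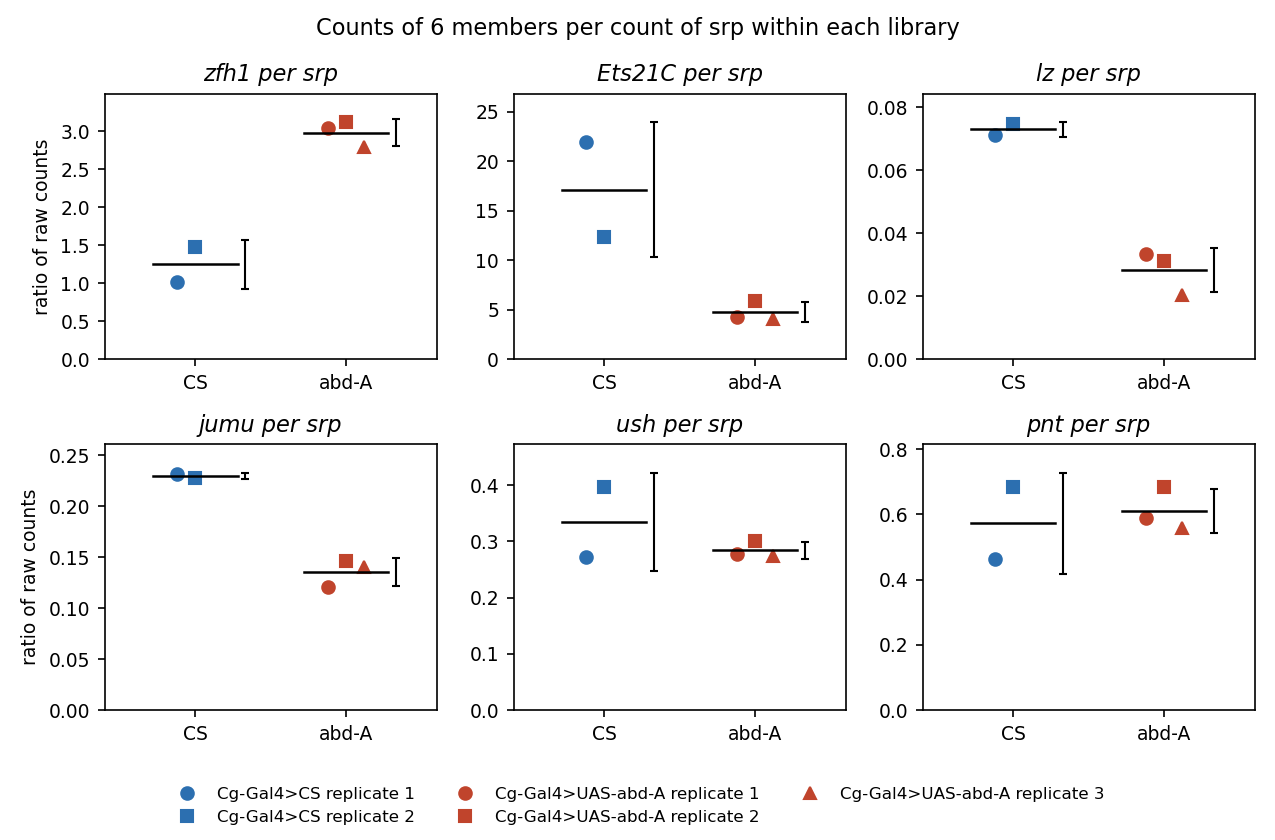
Raw counts of 6 members divided by those of srp in the same library (y axes, each from 0), for the 2 control (blue) and 3 abd-A (red) libraries, with group means (lines) and SD (bars). The ratios of zfh1, Ets21C, lz and jumu do not overlap between groups, and those of ush and pnt do.

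Other regulators with known roles in blood cells were taken from a list of 32 genes, of which 31 were tested. Of these, 6 were called higher, 5 lower and 20 neither, where 11.0% of all genes tested were called higher and 12.7% lower. The median log2 fold change was 0.02, beside -0.17 for all genes tested. The AP-1 genes Jra and kay, the fly Jun and Fos and the nuclear end of JNK signaling, had log2 fold changes of 2.05 (SE 0.23) and 1.37 (SE 0.22) and were called in 15 of 15 alternatives each. foxo, a forkhead factor of insulin signaling, had 1.23 (SE 0.27) and the GATA gene pnr had 1.19 (SE 0.30), but these calls depended on single libraries. foxo lost its call without control replicate 1, abd-A replicate 1 or abd-A replicate 3, and pnr kept it only without control replicate 2 among the 5 such fits. In the other direction lay EcR, the ecdysone receptor, with -3.24 (SE 0.41), the zinc finger gene peb, which acts in crystal cells, with -3.22 (SE 0.42), and the zinc finger gene klu with -3.03 (SE 0.51). EcR, peb and klu were called lower in 15 of 15 alternatives, unlike Bgb above. The transcription factor of JAK/STAT signaling, Stat92E, had 200.9 ± 33.5 CPM (SD, n = 2) and 218 ± 18.7 CPM (SD, n = 3), and the Notch pathway factor Su(H) had 13.8 ± 1.91 CPM (SD, n = 2) and 12.9 ± 2.94 CPM (SD, n = 3). Neither was called.

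Genes of the same protein families as the members were given by a list of 30 GATA, Runt, Ets, forkhead and zfh relatives. Only 20 reached the minimum, with 3 called higher, 3 lower and a median log2 fold change of -0.42. Of all genes tested, 11.0% were called higher and 12.7% lower. The called genes foxo and pnr stand in both this list and the one before. The Runt relatives run, RunxA and RunxB had at most 3 counts in any library, so lz was the sole Runt gene above that level. Among the GATA genes, pnr was called higher, GATAd was not called, at 0.42 (SE 0.29), and grn was called lower, with 30 and 18 reads in the controls and 4, 5 and 10 with abd-A. Among the 5 fits that left out a library, grn kept its call only without control replicate 2. zfh2, the relative of zfh1, was called lower, with 347 and 585 reads in the controls and 84, 86 and 114 with abd-A. Its change was -3.39 (SE 0.24) on the log2 scale and was called in 15 of 15 alternatives. The exons of zfh2 are overlapped on the opposite strand by 2325 bases. Of the Ets genes, Eip74EF, an early ecdysone response gene, was called lower at -2.18 (SE 0.36), and at -1.51 without control replicate 2. The forkhead gene CHES-1-like was called higher at 1.16 (SE 0.28), a call lost without control replicate 1, abd-A replicate 1 or abd-A replicate 3.

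Output genes of pnt and gcm were described last. Of 6 genes known to respond to Ras signaling and pnt in other fly tissues, 1 was called higher and 1 lower. The shares over all genes tested were 11.0% and 12.7%. aos, which encodes a secreted inhibitor of the EGF receptor, had 1 and 35 reads in the controls and 1509, 1047 and 1404 with abd-A, and its change was 5.24 (SE 0.62) on the log2 scale. It was 4.49 without control replicate 1 and 8.71 without control replicate 2, the latter fitted against a control of 1 count. kek1, a transmembrane inhibitor of the same receptor, had 88 and 382 reads in the controls and 34, 35 and 24 with abd-A, or -3.83 (SE 0.44) and -3.05 without control replicate 2. Both calls were kept in every alternative in which the gene was tested. The feedback inhibitor sty, with 0.24 (SE 0.20), and edl, with 0.47 (SE 0.45), were not called. Among 4 targets of gcm in glia, loco and moody were called higher, at 1.69 (SE 0.25) and 1.82 (SE 0.32), and repo and ttk were not called. Of all genes tested, 11.0% were called higher. loco and moody are also the 2 glia markers counted as higher above. Any part of gcm or gcm2 in these changes was not tested. The exons of loco are overlapped by 1032 bases on the opposite strand.

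For each called member the genes with the most similar profile were found by the root mean square difference of log2(CPM + 1), centred over the 5 libraries. The closest to zfh1 were RpL29, a ribosomal protein gene, at 0.0392, and egh at 0.043, and 555 genes lay within 0.25. Closest to Ets21C were CG6830, at 0.056 and with at most 11 counts in a library, and Lon, at 0.0658, with 128 genes within 0.25. For lz these were CG31174 at 0.0618 and asRNA:CR45802 at 0.0807, with 145 genes within 0.25. With 5 libraries in 2 groups, such a profile is mostly the step between the groups.

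The plot of alternatives gathers the fold changes of the members under other ways of processing the counts. zfh1 and Ets21C stayed called in every one, lz in 10 of 15, and jumu, ush, srp and pnt in 0 of 15.

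**Figure D5:**
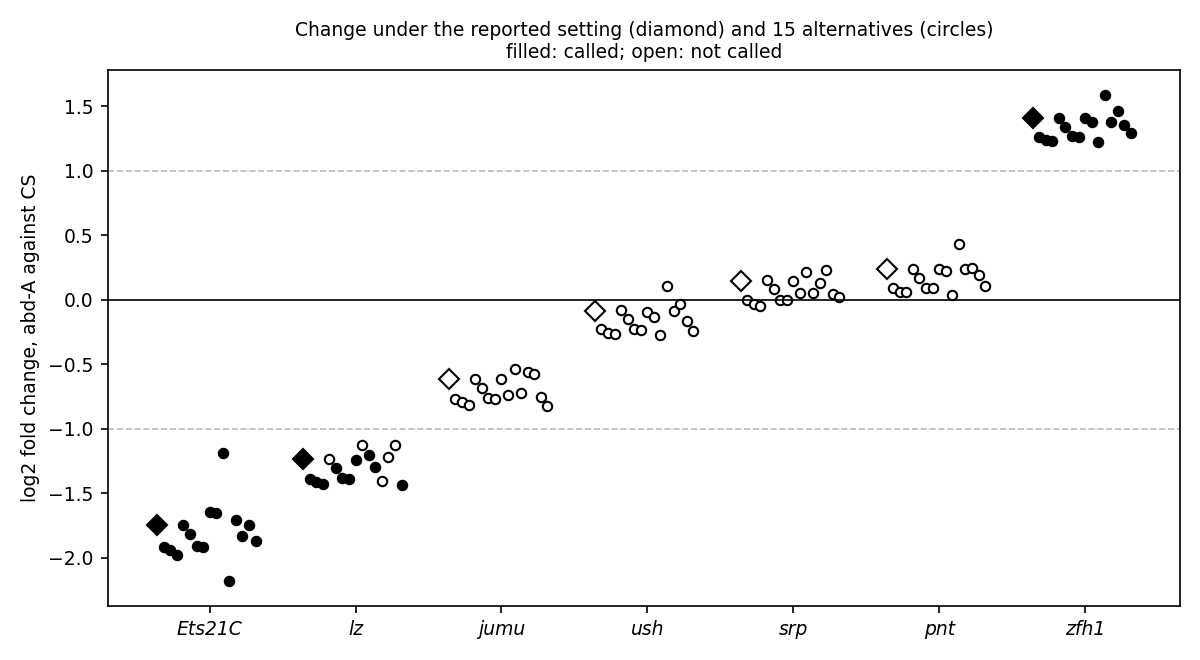
Log2 fold change (y axis, abd-A against CS) of 7 members under the reported processing (diamonds) and 15 alternatives (circles), filled where the member was called. Dashed lines mark a 2-fold change. All symbols of zfh1 and Ets21C are filled, those of lz are mixed, and kn is left out because its values span -2.73 to 5.71.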

How the data were processed

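The authors checked reads with FastQC 0.11.7, mapped them to dm6 with STAR 2.5.2 and counted them per gene with HTSeq 0.11.2. What the authors deposited are unnormalized counts, 1 column for each library. The annotation release, strand setting and overlap mode of the counting are not given in the sources used here. All 5 columns were matched to sample titles, 0 columns were left unmapped, and 0 rows lacked a gene identifier.

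Symbols, coordinates and exon lengths came from Ensembl release 115 in dm6 coordinates, which holds 17710 of the 17807 identifiers. Genes whose counts summed to at least 10 were scaled by TMM and compared in edgeR 4.0.16 (quasi-likelihood test, R 4.3.3, Benjamini-Hochberg adjustment over 11624 genes), with all libraries and no covariate. The SE is the size of the log2 fold change divided by the square root of F. Named genes were all 10 members, and from the other lists the called genes, at most the 4 with the largest change in each direction, and the 2 nearest profiles of each called member. Genes named outside this rule, such as Bro, Stat92E, Su(H), GATAd, sty, edl, repo, ttk, run, RunxA and RunxB, were chosen after their values were seen. The members and lists were chosen with earlier results of these data known. On counts simulated for this comparison (11461 genes), 23% of 100 genes changed 4-fold and 92% of 100 changed 16-fold were recovered, with 2 false calls. The simulation gave every gene the same dispersion and changed only 200 genes. These shares therefore do not describe how many real changes were found or how many calls in the data are false. Alternatives were 3 other scalings, 3 other count filters, DESeq2 1.42.0, limma-voom (limma 3.58.1), a replicate block, each library left out, no fold minimum, leaving out members overlapped on the opposite strand and, chosen after seeing the data, counts thinned to 1252969 per library. Promoter and protein sequences were not used here.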

Additional observations from a re-analysis of the deposited data

How the results depend on the processing

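Of the members, zfh1 was called higher in all 15 alternative fits, and 0 members were called higher once those overlapped on the opposite strand were left out, since zfh1 is such a gene. The number called lower was 2, with Ets21C in all 15 fits. It was 1 with no filter on low counts, 1 with the replicate block, 1 without overlapped members, and 1 to 2 when each library was left out, and lz was the gene lost except where Ets21C was left out as overlapped. The adjusted p of lz ranged from 0.0146 to 0.345 over the alternatives (edgeR, DESeq2 or limma). The cause was not tested, beyond that leaving out a library leaves fewer samples. The log2 fold change of srp turned below 0 to -0.0056 with the size factors of DESeq2, -0.0317 with upper-quartile normalization, -0.0502 with library totals, -0.0020 with at least 10 counts in every library and -0.0047 with the DESeq2 Wald test. With each library left out, ush ranged from -0.27 to 0.10 and kn from -2.73 to 5.71. Both upper ends are without control replicate 2, and that of kn is a fitted value against a control of 0 counts and therefore no estimate of size. In fits with 1 control, that library was assumed to vary like the abd-A libraries. Of the 58 genes tested from the 4 other gene lists, 19 were called, against 12 with the replicate block and 11 to 24 with each library left out. Over all genes the median change on the log2 scale moved from -0.17 to between -0.36 and -0.32 with the other scalings. Over all genes the calls were 1274 higher and 1481 lower, against 867 and 831 with the replicate block, and 693 to 2278 higher and 744 to 2094 lower when each library was left out.

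Whether replicate numbers pair these samples could not be decided from the data. The difference between control replicates 1 and 2 had a correlation of 0.00513 with that between abd-A replicates 1 and 2, across 11624 genes. This check rests on 1 difference in each group and cannot exclude pairing. With the replicate block, the log2 fold changes were 1.38 for zfh1, -1.65 for Ets21C and -1.12 for lz, with adjusted p of 0.0349, 0.0212 and 0.345 (edgeR). Depth limits the rows of gcm, gcm2 and kn most, since 3 counts are 2.06 CPM in the shallowest library. With at least 10 counts in every library kn had no value, and no fold change is given for gcm and gcm2 in any setting.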
